A study of Mus musculus with 32 samples.

Results

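Ddit4 and Sgk1 are a pair of glucocorticoid-responsive genes on mouse chromosome 10 whose products act in growth signalling. The chromatin around them was described here from 5 deposited interval lists (build mm9), taking every interval whose centre lay in chr10:59350000-59500000 for Ddit4 (150 kb) or chr10:21550000-21770000 for Sgk1 (220 kb). These windows held 89 of the 180039 intervals in the lists, 63 at Ddit4 and 26 at Sgk1. By list they comprised 15 peaks of the glucocorticoid receptor (GR), 12 dexamethasone and 6 vehicle peaks of C/EBPβ, and 17 dexamethasone and 13 vehicle DNase I hypersensitive sites (DHS, sites of accessible chromatin) at Ddit4. At Sgk1 they comprised 3 GR peaks, 1 dexamethasone and 2 vehicle C/EBPβ peaks, and 14 dexamethasone and 6 vehicle DHS. The loci were selected on the intervals found in them in these same lists, so the counts and classes below are descriptions without a test.

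The mice were C57BL/6 males, 8 weeks old, and liver was examined. All animals had undergone bilateral adrenalectomy, which removes the main source of their own glucocorticoid. A treated group received dexamethasone, a synthetic GR ligand, as a complex with cyclodextrin (1 mg/kg dexamethasone) and the other the cyclodextrin vehicle (1 mg/kg), both in 300 ul by intraperitoneal injection, and the design text gives 1 h of treatment. DNase-seq, GR ChIP-seq and C/EBPβ ChIP-seq each have 2 dexamethasone and 2 vehicle samples, but the lists give 1 set of intervals per condition for DHS and for C/EBPβ and a single set for GR, with no sample, height or read count. Depth behind an interval is therefore unknown, presence in 1 list and not in the other has no replicate check, and the lists cannot show how many samples held an interval. Liver tissue mixes hepatocytes with other cells, and more cells with an open site cannot be told apart from a site that is more open in each cell. The lists hold no RNA, so the liver label and the response of either gene were not checked against expression. The GR list names no treatment.

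As background, GR is a nuclear receptor that on binding its ligand enters the nucleus and binds DNA, classically at an inverted repeat of a hexamer with a short spacer. C/EBPβ belongs to a family of basic leucine zipper factors that is abundant in liver. Ddit4 encodes REDD1, a stress- and glucocorticoid-induced protein that inhibits the growth-promoting kinase complex mTORC1 through the TSC1-TSC2 complex. Sgk1 encodes serum- and glucocorticoid-regulated kinase 1, a kinase related to Akt that is activated downstream of mTORC2 and PDK1 and phosphorylates targets such as the ubiquitin ligase NEDD4-2 and FOXO3. In the order of protein-coding genes in RefSeq (GRCm38.p6), Ddit4 lies between Dnajb12 and Anapc16, and Sgk1 between Aldh8a1 and 4930444G20Rik. The windows are wider than either gene, and an interval in them may serve another gene.

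The promoter windows differed in their content of GR motif, both between the genes and among the start sites of Sgk1. They are shown because Sgk1 holds a full palindromic GR site in the 250 bases before one of its 6 annotated start sites, and Ddit4, with 1 start site, holds none. The sequences are RefSeq's, from build GRCm38.p6, and their coordinates were not set against the mm9 intervals. Capitals mark motif matches, read 5′ to 3′ on the strand of the gene.
Sgk1, start site 5 of 6, plus strand, chr10:21993640-21993889 (GRCm38.p6): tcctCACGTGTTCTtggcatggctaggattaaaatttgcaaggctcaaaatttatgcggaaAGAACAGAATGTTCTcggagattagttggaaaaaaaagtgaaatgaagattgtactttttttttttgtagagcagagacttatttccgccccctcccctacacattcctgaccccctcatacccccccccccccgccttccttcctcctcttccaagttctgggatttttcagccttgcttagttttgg
Ddit4, minus strand, chr10:59951771-59952020 (GRCm38.p6): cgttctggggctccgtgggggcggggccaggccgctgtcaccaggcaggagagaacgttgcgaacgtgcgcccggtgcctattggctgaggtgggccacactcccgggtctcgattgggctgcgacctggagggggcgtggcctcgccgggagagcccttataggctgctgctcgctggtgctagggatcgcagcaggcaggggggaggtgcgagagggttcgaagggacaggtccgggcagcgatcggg

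The Sgk1 match AGAACAGAATGTTCT fits the GR consensus (AGAACA, any 3 letters, TGTTCT) at all of its 12 fixed letters and lies 189 to 175 bases before the start site. An exact match was found in 3 of the 32851 RefSeq promoter windows of the same length (0.00913%), those of Sgk1, Acnat2 and Gm35041 (the other two were named after the search). The first capitals in the Sgk1 sequence are an E-box (CACGTG, bases 246 to 241 before the start), which overlaps a single GR hexamer (TGTTCT, bases 242 to 237). Hexamers (AGAACA on either strand) were found in 16.1% of all promoter windows and E-boxes in 6.02%. Of the other Sgk1 start sites, start site 3 held AGAAGATTCTGATCT, a GR site with 2 mismatches, as did 1.56% of all windows allowing up to 2. Start sites 2 and 3 each held 1 C/EBP motif (TTNNGNAA on either strand, found in 36.8% of windows), and start sites 1 and 4 each held 1 GR hexamer. The Ddit4 window held none of the motifs searched, which also included the CRE (TGACGTCA, 1.55% of windows), and its best GR site had 5 mismatches. The Ddit4 window was also richer in G and C, at 70%, than the window of Sgk1 start site 5, at 44.8%. Sgk1 start site 6 was like Ddit4 in both respects. Its window had 70.4% G and C and none of the motifs searched, and its best GR site had 4 mismatches. No match says only that these letters are not in this window.

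GR peaks were packed densely at Ddit4 and were fewer at Sgk1. Autosomes were divided into adjoining stretches of the same size as each window, called tiles, and tiles with at least 1 DHS were kept. The 15 GR peaks at Ddit4 were equalled or exceeded in 4 of 11418 tiles of 150 kb (0.035%), where the median tile held 0 and the fullest 19. The 3 GR peaks at Sgk1 were equalled or exceeded in 1638 of 8547 tiles of 220 kb (19.2%), where the median tile held 0 and the fullest 23. At Ddit4 the GR peaks spanned 82057 bp, and the median distance between neighbouring GR centres was 4381.5 bp (183 to 22286 bp, 14 distances). At Sgk1 the 3 GR peaks lay within 11411 bp, 8086 and 3175 bp apart. Neighbouring GR centres over all autosomes were a median of 28938 bp apart.

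**Figure D1:**
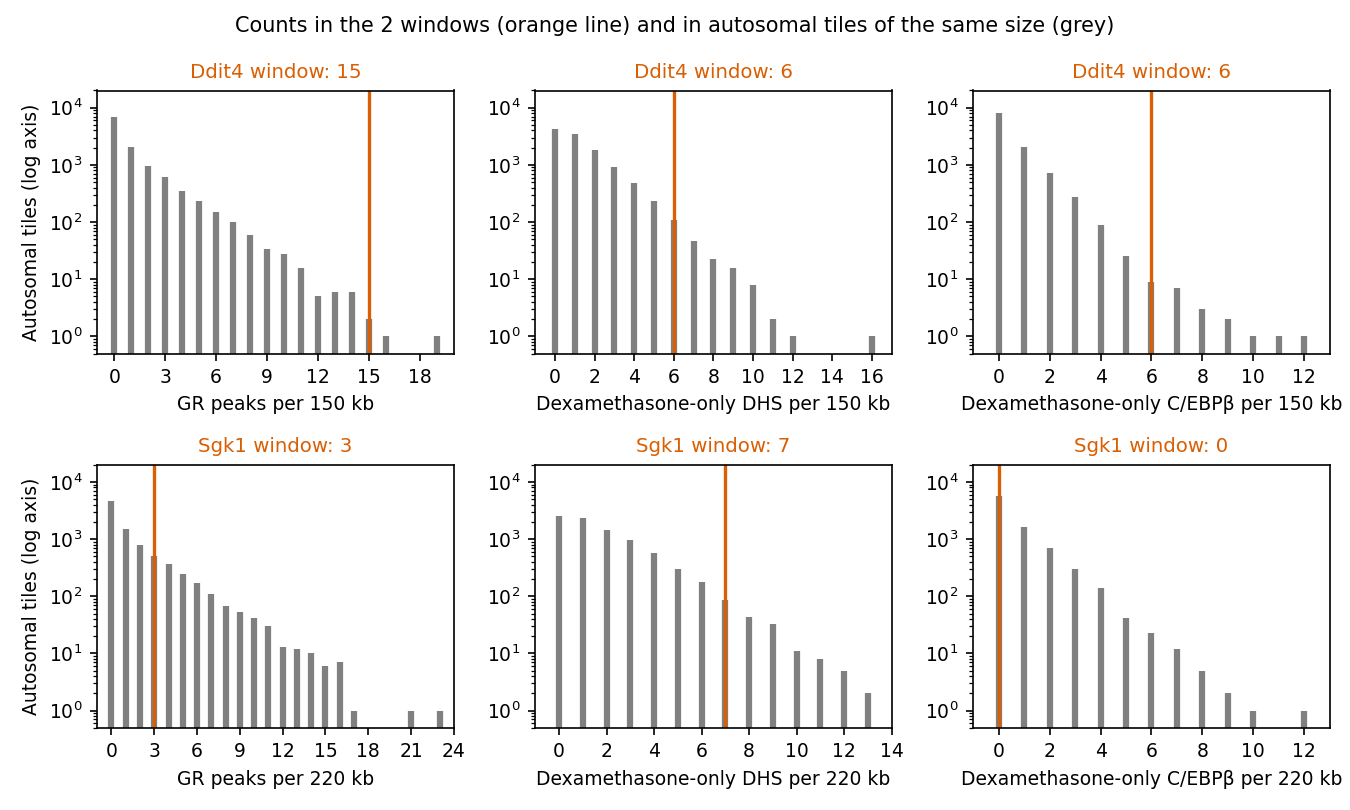
Number of GR peaks, dexamethasone-only DHS and dexamethasone-only C/EBPβ peaks in the Ddit4 window (upper row, 150 kb) and the Sgk1 window (lower row, 220 kb), drawn as orange lines, over the number of autosomal tiles of the same size that hold each count (grey bars, log axis). The Ddit4 line stands at 15 GR peaks, far out in the tail, and the Sgk1 line at 3, while for dexamethasone-only DHS both lines (6 and 7) lie in the upper tail.

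The window edges did not cut through the GR peaks. The outermost GR peaks at Ddit4 lay 28547 bp inside the left edge and 39546 bp inside the right edge, and the nearest GR peaks beyond lay 112915 and 44835 bp outside these edges. At Sgk1 the outermost GR peaks lay 163513 and 45226 bp inside, and the nearest outside were 201415 bp to the left and 1787495 bp to the right. A C/EBPβ peak of both lists at Ddit4 lay 1020.5 bp inside the left edge, and at Sgk1 a dexamethasone C/EBPβ peak lay 8794 bp outside the right edge. A vehicle DHS lay 3031.5 bp outside the left edge at Sgk1.

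The Ddit4 GR peaks fell into 3 stretches by the state of the chromatin in vehicle livers. The 6 leftmost GR peaks, from chr10:59378472 to chr10:59415339, all lay in vehicle DHS. The next 6, from chr10:59430370 to chr10:59445867 (15497 bp), all lay outside vehicle DHS. Of the last 3, chr10:59446329-59446479 and chr10:59454094-59454244 lay in vehicle DHS and chr10:59460379-59460529 did not. In all, 8 of 15 GR peaks (53.3%, exact 95% binomial interval 26.6 to 78.7) lay in a vehicle DHS, against 79.3% of 11564 autosomal GR peaks. A dexamethasone-only DHS held 4 (26.7%), against 15.5%, a shared DHS beyond its vehicle interval held 2 (13.3%), against 1.98%, and 1 (6.67%) lay in no DHS, against 3.26%. These last 7 (46.7%, 21.3 to 73.4) lay outside vehicle DHS, against 20.7% on the autosomes. These intervals cover counting error only and take peaks as independent, although neighbouring peaks can share a DHS, and nothing is read from them about the locus, since it was picked with its peaks known. The split also depended on the overlap rule: 11 of 15 lay within 500 bp of a vehicle DHS (73.3%), and 5 of 15 (33.3%) met one when all DHS were reduced to 300 bp around their centres.

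**Figure D2:**
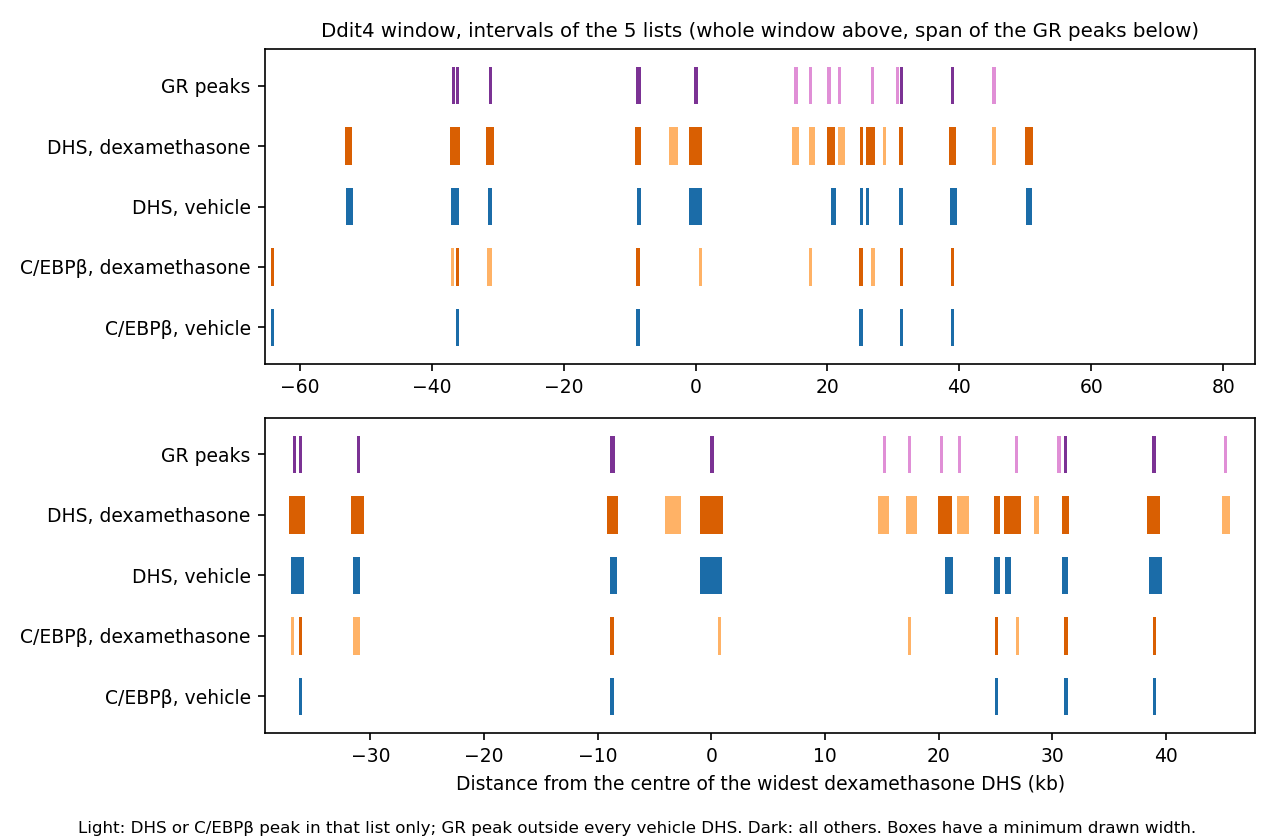
Intervals of the 5 lists in the Ddit4 window, as distance in kb from the centre of the widest dexamethasone DHS (2070 bp), for the whole window and for the span of the GR peaks. Light boxes are DHS or C/EBPβ peaks in that list only, or GR peaks outside every vehicle DHS. A run of 6 light GR peaks stands to the right of the centre, with vehicle DHS among them that overlap none of these GR peaks.

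In the leftmost stretch, the GR peaks lay in sites that were open in both lists, and some but not all of them overlapped a C/EBPβ peak. The GR peaks chr10:59378472-59378622 and chr10:59378994-59379144 lay in 1 DHS, which was 1437 bp wide in the dexamethasone list and 1195 bp in the vehicle list. The second of them coincided with a C/EBPβ peak of both lists, with centres 1.5 bp apart, and the other lay 209 bp from a dexamethasone-only C/EBPβ peak. Farther right, chr10:59384078-59384228 lay in a DHS of 1159 bp (dexamethasone) and 629 bp (vehicle). That DHS held 2 dexamethasone-only C/EBPβ peaks, their centres 13 and 309 bp from the GR centre, and no vehicle C/EBPβ peak lay nearer than 5082.5 bp. The GR peaks chr10:59406364-59406514 and chr10:59406547-59406697, centres 183 bp apart, both overlapped 1 C/EBPβ peak of both lists, chr10:59406366-59406584, in a DHS of 1004 bp (dexamethasone) and 630 bp (vehicle). The sixth GR peak, chr10:59415189-59415339, overlapped no C/EBPβ peak. It lay in the widest DHS of the window, 2070 bp in the dexamethasone list, which overlapped 3 vehicle DHS that together covered 1971 bp.

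In the middle stretch, 3 GR peaks lay in DHS found only after dexamethasone, 2 in parts of shared DHS that the vehicle intervals did not reach, and 1 in no DHS. Without a counterpart in vehicle were chr10:59429832-59430825, chr10:59432353-59433333 and chr10:59436809-59437908, which were 993, 980 and 1099 bp wide, and held 1 GR peak each. The nearest vehicle DHS lay 5213, 3005 and 519 bp from these GR peaks. The GR peak of the second, chr10:59432578-59432728, met a dexamethasone-only C/EBPβ peak with centres 1 bp apart, and the others had no C/EBPβ peak. The GR peak chr10:59435388-59435538 lay inside the dexamethasone DHS chr10:59435146-59436375 and 195 bp outside its vehicle counterpart, chr10:59435733-59436435. Likewise, chr10:59441991-59442141 lay inside the dexamethasone DHS chr10:59441004-59442438 and 408 bp outside its vehicle counterpart, chr10:59441089-59441583. It coincided with a dexamethasone-only C/EBPβ peak, centres 58 bp apart. Only chr10:59445717-59445867 lay in no DHS, 168 bp from the nearest dexamethasone DHS and 202 bp from the nearest vehicle DHS.

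In the rightmost stretch, both GR peaks in vehicle DHS coincided with C/EBPβ peaks of both lists, with centres 12 and 29 bp apart. Their DHS were 676 and 1118 bp wide in the dexamethasone list and 535 and 1112 bp in the vehicle list. The last GR peak lay in the dexamethasone-only DHS chr10:59460121-59460826 (705 bp), 4732 bp from a vehicle DHS and 6256 bp from a C/EBPβ peak.

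At Sgk1 each of the 3 GR peaks was of another kind. Leftmost, chr10:21713438-21713588 lay in a DHS of both lists without a C/EBPβ peak. That region was 2 dexamethasone DHS of 2053 bp in all, split by a gap of 125 bp, and 1 vehicle DHS of 2199 bp, and the GR peak lay in the left dexamethasone DHS, chr10:21712617-21713957. The GR peak chr10:21721524-21721674 lay in a DHS of both lists and coincided with the only C/EBPβ peak that both lists had in this window, chr10:21721536-21721697, with centres 17.5 bp apart. Rightmost, chr10:21724699-21724849 lay in the dexamethasone-only DHS chr10:21724396-21725087 (691 bp), without a C/EBPβ peak and 2712 bp from the nearest vehicle DHS. So 2 of 3 GR peaks (66.7%, 9.43 to 99.2) lay in a vehicle DHS. The interval of so few peaks spans nearly every share.

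**Figure D3:**
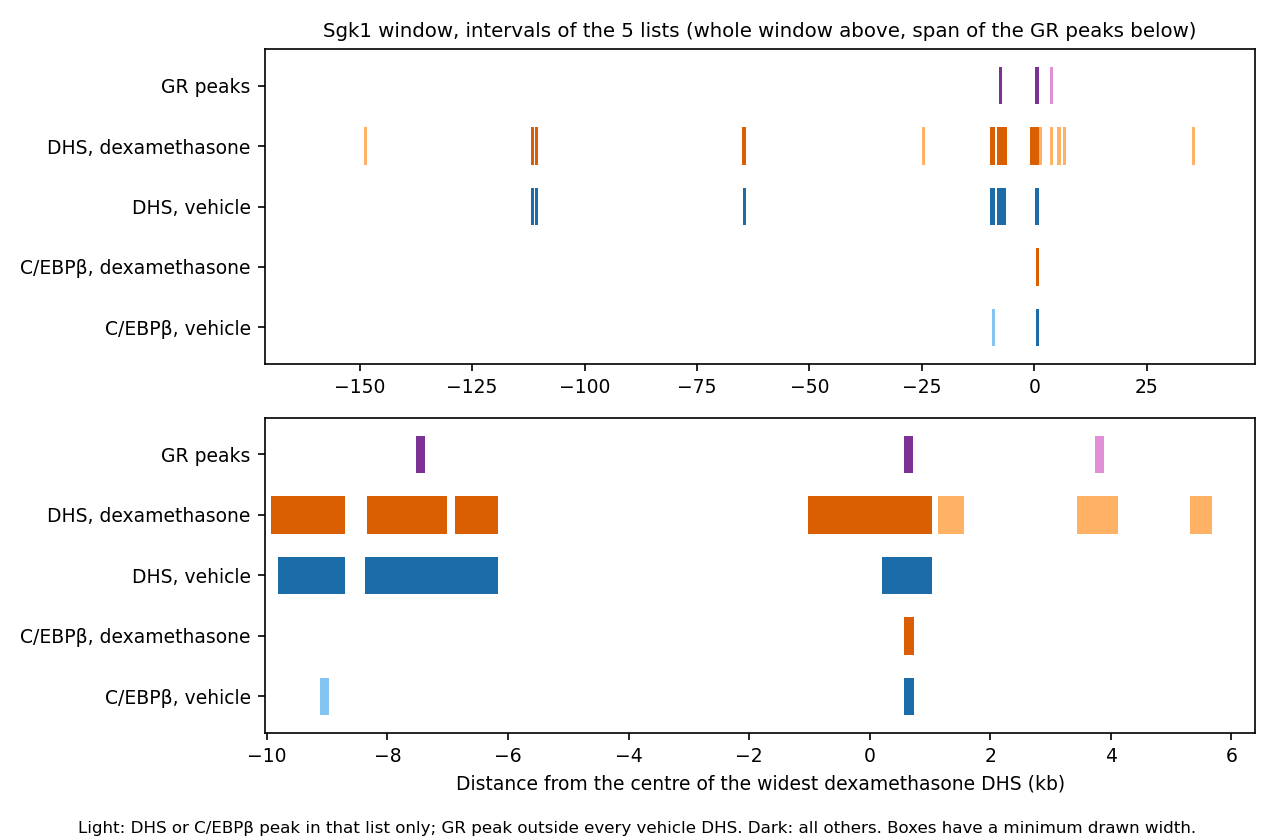
Intervals of the 5 lists in the Sgk1 window, as distance in kb from the centre of the widest dexamethasone DHS (2052 bp), for the whole window and for the span of the GR peaks, with light boxes as in the Ddit4 map. All GR and C/EBPβ peaks lie in the right part of the window, and 7 dexamethasone DHS are light.

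Both windows held DHS found only after dexamethasone. At Ddit4, 6 of 17 dexamethasone DHS (35.3%, 14.2 to 61.7) had no vehicle counterpart, and at Sgk1 7 of 14 (50%, 23.0 to 77.0), against 23.6% of 61446 on the autosomes. Both intervals are wide and contain the autosomal share, which is not a test of a difference. By number, 6 dexamethasone-only DHS were equalled or exceeded in 1.8% of tiles of the Ddit4 size, and 7 in 2.22% of tiles of the Sgk1 size. No vehicle DHS was absent from the dexamethasone list, 0 of 13 at Ddit4 (exact upper limit 24.7%) and 0 of 6 at Sgk1 (upper limit 45.9%), where the autosomal share was 14.9%. At Sgk1 this depended on the window, since with 25 kb more at each side 1 of 8 vehicle DHS (12.5%) was absent.

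Over all DHS, a GR peak lay in 12 of 17 dexamethasone and 6 of 13 vehicle DHS at Ddit4, and in 3 of 14 and 2 of 6 at Sgk1, against 17.1% and 15.7% on the autosomes. A GR peak lay in 4 of the 6 dexamethasone-only DHS at Ddit4 (66.7%, 22.3 to 95.7) and in 1 of the 7 at Sgk1 (14.3%, 0.361 to 57.9), against 12.2% of 14483 on the autosomes, so that the Sgk1 share was near the autosomal one. The Ddit4 ones were also wider, with a median of 986.5 bp (484 to 1368 bp), than those at Sgk1, with a median of 440 bp (253 to 691 bp), and the autosomal median was 479 bp. The 2 without GR at Ddit4 were chr10:59411164-59412532, which at 1368 bp was the widest of the 6, and chr10:59443578-59444062. Neither held a C/EBPβ peak. At Sgk1 the 6 without GR were 253 to 462 bp wide and none held a C/EBPβ peak. Few such DHS held one anywhere. With or without GR, a dexamethasone C/EBPβ peak lay in 1 of 6 dexamethasone-only DHS at Ddit4 and 0 of 7 at Sgk1, against 11.4% on the autosomes. The absences are therefore not particular to these windows. Of the 7 at Sgk1, 5 followed each other without a shared DHS between them, from chr10:21722087 to chr10:21756455 (34368 bp). The last of them, chr10:21756202-21756455, lay far from the one before it, which ended at chr10:21727954. How often such runs occur in other tiles was not counted.

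DHS present in both lists were compared by width, since the lists hold no signal. Of those whose dexamethasone interval held a GR peak, 8 could be matched one to one, 7 at Ddit4 and 1 at Sgk1, and all 8 were wider in the dexamethasone list. In each window another shared DHS with GR was left out by the one-to-one rule. At Sgk1 it was narrower after dexamethasone, with 2053 bp in 2 parts against 2199 bp in vehicle. At Ddit4 it was 2070 bp against 1971 bp covered by 3 vehicle DHS. The class of matched DHS with GR in the dexamethasone interval is partly decided by the widening itself, because a wider dexamethasone interval reaches more GR peaks. At Ddit4, chr10:59435146-59436375 and chr10:59441004-59442438 belong to it only because the dexamethasone interval reached a GR peak that the vehicle interval did not. On the autosomes 70.8% of 8051 matched DHS of this class and 46.6% of the 35054 others were wider in the dexamethasone list. DHS were therefore also classed by a GR peak in the part common to both intervals, a rule added after these widths were seen. All 5 such DHS at Ddit4 and the 1 at Sgk1 were wider in the dexamethasone list, against 70.3% of 7917 on the autosomes, where 46.8% of the 35188 others were wider.

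At Ddit4 the 5 with GR in the common part had a median width of 1118 bp in the dexamethasone list and 630 bp in the vehicle list. Their median log2 ratio was 0.34 (0.01 to 0.88), against 0.12 for such autosomal DHS, whose quartiles were -0.03 and 0.31. With all 7 by the dexamethasone interval it was 0.67 in place of 0.34, so the 2 DHS that reached their GR peak by widening raised the median. Among the 5, the largest ratio was that of chr10:59383464-59384623, 1159 bp against 629 bp in vehicle (0.88), above 96.3% of autosomal DHS with GR in the common part. The smallest, at chr10:59453584-59454702, was 1118 bp against 1112 bp (0.01), higher than 31.0% of them. The 2 others were 1229 bp against 702 bp in vehicle (log2 ratio 0.81) and 1434 bp against 494 bp (1.54).

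At Sgk1 the matched DHS with GR, chr10:21719936-21721988, was 2052 bp wide in the dexamethasone list and 817 bp in the vehicle list (log2 ratio 1.33), above 99.3% of autosomal DHS with GR in the common part. The extra 1234 bp was to the left, while the GR peak and the C/EBPβ peak lay in the part common to both intervals. Of the matched DHS without GR in either interval, 1 of 3 at Ddit4 and 3 of 4 at Sgk1 were wider in the dexamethasone list, with log2 ratios from -0.09 to 0.29 and from -0.31 to 0.48. All dexamethasone DHS of the Ddit4 window together covered 18475 bp with a mean width of 1086.8 bp, against 9861 bp and 761.9 bp for vehicle DHS. At Sgk1 the covered length was 10288 bp with a mean width of 734.9 bp in the dexamethasone list, against 5788 bp and 964.7 bp in the vehicle list. At Sgk1 the greater length in the dexamethasone list was thus spread over more DHS of smaller mean width.

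**Figure D4:**
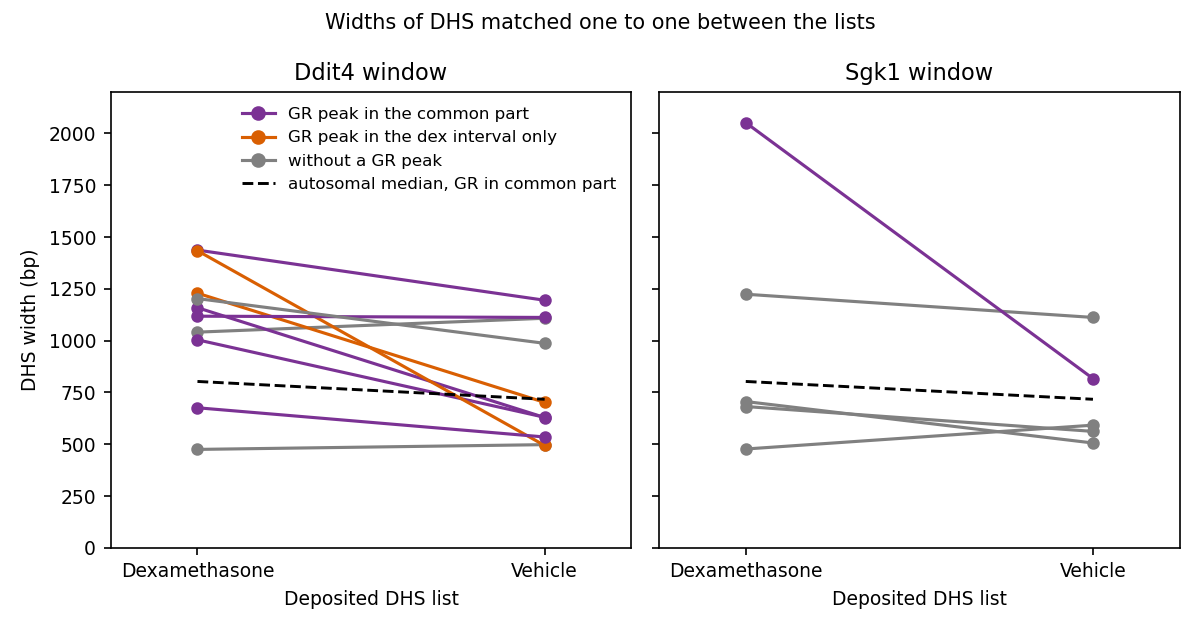
Width in bp of each DHS matched one to one between the dexamethasone list (left) and the vehicle list (right), for the Ddit4 window (10 DHS) and the Sgk1 window (5 DHS). Purple lines are DHS with a GR peak in the part common to both intervals, orange lines DHS whose GR peak lies in the dexamethasone interval alone, and grey lines DHS without GR; the dashed line joins the autosomal medians of DHS with GR in the common part (803 and 717 bp), and each of the 6 purple lines is lower at vehicle.

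The Ddit4 window held dexamethasone C/EBPβ peaks without a vehicle counterpart, and the Sgk1 window, with 1 dexamethasone C/EBPβ peak, held none. Of the 12 dexamethasone C/EBPβ peaks at Ddit4, 6 (50%, 21.1 to 78.9) were absent from the vehicle list, against 20% of 25049 on the autosomes. As many or more dexamethasone-only C/EBPβ peaks were found in 24 of 11418 tiles (0.21%). All 6 vehicle C/EBPβ peaks at Ddit4 were also in the dexamethasone list, from which only 10.5% of 22405 autosomal vehicle peaks were absent. Every one of the 6 dexamethasone-only peaks lay in a dexamethasone DHS that also held a GR peak, where 32.9% of 5001 did so on the autosomes. Of the 6 C/EBPβ peaks of both lists at Ddit4, 4 did so (autosomes 33.7%), in a window where 12 of 17 dexamethasone DHS held GR. Among the dexamethasone-only peaks 3 overlapped the GR peak itself, against 27.7% on the autosomes. These 3 had centres 1, 13 and 58 bp from GR, and the other three 209, 309 and 652 bp. Each of these 6 was 150 bp wide, as were all autosomal C/EBPβ peaks found in 1 list only. In both windows the C/EBPβ peaks of both lists had the same start, end and number in each list. The lists may therefore not be separate calls, and the width is not read as a trait of peaks in 1 list only. At Sgk1 the absence of a dexamethasone-only C/EBPβ peak depended on the window, since with 25 kb more at each side 1 of 2 dexamethasone peaks was absent from vehicle. In the window as given, 1 of 2 vehicle peaks, chr10:21711847-21711997, was absent from the dexamethasone list (autosomes 10.5%). It lay in a DHS of both lists, chr10:21711038-21712262 after dexamethasone, 1591 bp from the nearest GR centre.

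Seen from the GR peaks, the shares with C/EBPβ are set beside the autosomal shares as a description. With so few peaks the intervals are wide, so that they contained the autosomal shares in both windows is not a test. At Ddit4 8 of 15 GR peaks (53.3%, 26.6 to 78.7) overlapped a dexamethasone C/EBPβ peak and 5 (33.3%, 11.8 to 61.6) a vehicle one, and at Sgk1 1 of 3 (33.3%, 0.84 to 90.6) overlapped a peak of both lists. The autosomal shares were 62.1% and 50.5%. By list, 5 GR peaks at Ddit4 met C/EBPβ in both lists (autosomes 50.2%), 3 in the dexamethasone list only (autosomes 11.9%), and 7 met none (autosomes 37.5%). The 5 at Ddit4 with C/EBPβ in both lists all lay in vehicle DHS, as did 79.3% of all autosomal GR peaks. The autosomal share among GR peaks with C/EBPβ in both lists was not computed, so nothing is read from this count. Of the 7 GR peaks outside vehicle DHS, 2 (28.6%) met a dexamethasone C/EBPβ peak, near the autosomal 24.7% of 2398. Both of these C/EBPβ peaks were in the dexamethasone list only. The nearest dexamethasone C/EBPβ centre lay at a median distance from GR of 147 bp at Ddit4 (1 to 6256 bp) and 3157.5 bp at Sgk1 (17.5 to 8103.5 bp), against 45 bp on the autosomes. For vehicle C/EBPβ peaks the medians were 1758 bp at Ddit4 and 1591 bp at Sgk1, against 133 bp.

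**Figure D5:**
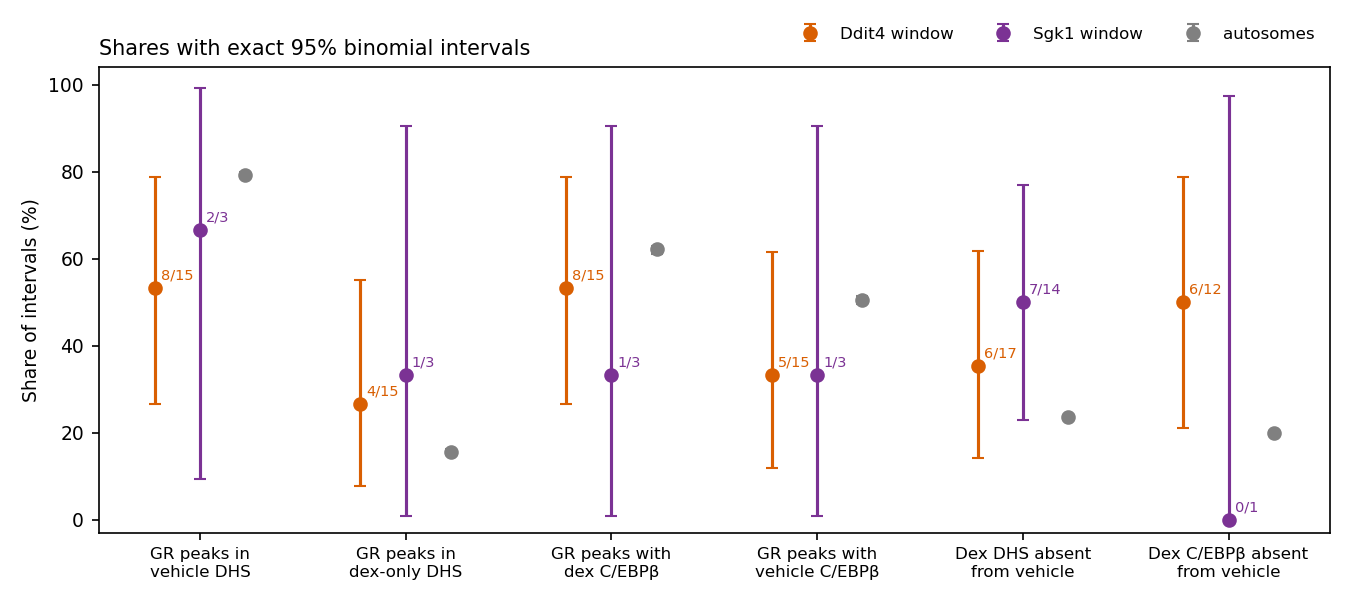
Share of intervals in percent, with exact 95% binomial intervals, for the Ddit4 window (orange), the Sgk1 window (purple) and all autosomal intervals (grey, intervals smaller than the point); the numbers give the count over the total. The 8 of 15 Ddit4 GR peaks in vehicle DHS lie below the autosomal 79.3%, and the 6 of 12 dexamethasone C/EBPβ peaks absent from vehicle lie above 20%.

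Other regions had similar counts. The tiles closest to the Ddit4 window in the 5 list counts, by the sum of absolute differences, were chr9:48450000-48600000 (sum 3), chr13:52050000-52200000 (sum 5) and chr17:28500000-28650000 (sum 8). The first held 14 GR peaks, 11 dexamethasone and 6 vehicle C/EBPβ peaks, and 18 dexamethasone and 13 vehicle DHS. It had 4 GR peaks outside vehicle DHS, as did the tile on chromosome 13, and the one on chromosome 17 had 7 among its 11 GR peaks. Counted over the 4 tiles that matched or exceeded Ddit4 in GR peaks, 15 of 65 (23.1%) lay outside vehicle DHS, and none of these tiles had 7 or more such peaks. The tiles closest to the Sgk1 window were chr2:147840000-148060000 and chr3:108460000-108680000 (sum 3 each), followed by chr2:148280000-148500000 (sum 4, a value shared by 5 tiles). They held 3, 2 and 2 GR peaks, 7, 6 and 8 dexamethasone-only DHS and 0 dexamethasone-only C/EBPβ peaks each.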

How the data were processed

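The 5 deposited lists hold positions only (build mm9, per the file names), and their values are the start and end of each interval as the authors deposited them, with no score or other measurement. CASAVA 1.8 and mm9 are named in the submitters' processing notes. The aligner, the peak caller with its threshold, and any pooling were not given in the sources used here. Positions are printed as in the files, intervals were treated as half-open, and the files hold no columns of per-sample values. All GR intervals are 150 bp wide, and the dexamethasone DHS list holds 3 duplicate rows, none in the windows.

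Intervals were overlapped by at least 1 bp. DHS were matched between the lists if neither overlapped a second interval of the other list. Tiles started at position 0 of each autosome, without the tile overlapping the window itself. Shares have exact (Clopper-Pearson) 95% binomial intervals. No p-value was computed, since each condition has 1 list. Named intervals were all GR peaks, all DHS with GR, list-only DHS and C/EBPβ peaks with GR or C/EBPβ, and the widest DHS. DHS without either peak were named after their values were seen. Members and lists were chosen with earlier results of these data known. Other growth-signalling genes were not counted, as no mm9 annotation was used here. Overlap code was tested on simulated data and against bedtools 2.31.1. The code ran on Python 3.11.15 with pandas 2.3.3, numpy 2.4.6, matplotlib 3.10.9 and scipy 1.17.1. The adenovirus, RNA polymerase II and input samples were not analysed here.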

Additional observations from a re-analysis of the deposited data

How the results depend on the processing

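No paired analysis was possible because the lists carry no sample, so no replicate could be left out or paired either. There were 144 alternative values for 34 results, 4 of them added after the widths were seen. A reversal could be scored only for the median log2 width ratios, and none of those changed sign. Shares, counts and percentiles have no sign to reverse. The binomial intervals of these shares are so wide (0 to 97.5% for 0 of 1) that lying within them says nothing about stability, so the values that changed most are given. GR peaks in a vehicle DHS at Ddit4 numbered 5 of 15 with DHS reduced to 300 bp and 11 of 15 within 500 bp, in place of 8, and stayed at 8 under the other 4 settings. Dexamethasone-only DHS ran from 29.4% to 37.5% at Ddit4 (main 35.3%) and from 41.7% to 50% at Sgk1 (main 50%). Vehicle DHS absent from the dexamethasone list at Sgk1 numbered 1 of 8 (12.5%) with the window widened by 25 kb, in place of 0 of 6. GR peaks at Ddit4 with C/EBPβ ran from 46.7% to 66.7% in the dexamethasone list (main 53.3%) and from 26.7% to 46.7% in the vehicle list (main 33.3%). The median log2 width ratio of DHS with GR at Ddit4 was 0.34 with GR required in the common part or in the vehicle interval, in place of 0.67. With the window widened by 25 kb at each side, Sgk1 had 2 dexamethasone C/EBPβ peaks in place of 1, the second absent from vehicle (50% in place of 0%), its dexamethasone-only C/EBPβ count stood at percentile 73.11 in place of 33.39, and the Ddit4 GR count stood at percentile 99.89 of tiles in place of 99.97. The Sgk1 GR count stood at percentile 83.83, at 87.68 with empty tiles included, 65.03 among tiles with a GR peak, 80.88 with the widened and 87.36 with the narrowed window. The other 15 values outside their interval, that one included, were percentiles of dexamethasone-only DHS or C/EBPβ counts. With 3 GR peaks at Sgk1, shares there have almost no precision.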
